A study of Homo sapiens with 6 samples.

Results

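BAI1 and 9 related adhesion G protein-coupled receptors (GPCRs) were described in A375 cells given BMI1. The receptors were BAI1, BAI2, BAI3, LPHN1, LPHN2, LPHN3, GPR56, GPR98, CD97 and CELSR2, 10 of the 23345 gene symbols in the deposited table. They were picked by symbol from the adhesion GPCR family, with BAI1 chosen because it was among the steepest rises between the groups compared here. A375 is an established human melanoma line, and all cells carried a lentivirus, either for GFP (the control, 3 libraries) or for murine BMI1, a subunit of Polycomb repressive complex 1 (3 libraries). The labels do not say whether the cells were clones or pools, and nothing in them says that replicates came from separate cultures, so each error covers the spread between libraries, which may be technical.

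Adhesion GPCRs join a long extracellular region, built of adhesion modules, to a membrane-spanning G protein-coupled receptor. In most of them the extracellular region is cut at a proteolysis site next to the membrane and stays attached, and binding of a matrix or cell-surface ligand can free a tethered peptide that activates the receptor. BAI1, brain-specific angiogenesis inhibitor 1, carries thrombospondin repeats, is best known in brain and in phagocytes, and binds phosphatidylserine on dying cells. In melanoma the best studied member is GPR56, a receptor for collagen III and transglutaminase 2 whose part in metastasis has been studied.

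The libraries held between 20221402 and 30388888 rounded estimated counts. GFP replicate 1 stood apart on the second principal component, which held 12.2% of the variance, so the number of called genes in each list of related genes is also given without it. The BMI1 row read between 81.5 and 94.0 CPM (counts scaled to a common depth) in the GFP libraries and between 506 and 522 CPM in the BMI1 libraries. The transgene was murine and the reads were counted against human hg19, so this row need not give the full BMI1 level. The melanocyte lineage factors SOX10 and MITF were present, while 5 of the 7 melanocyte markers examined, the pigment genes PMEL, MLANA, TYR, DCT and TYRP1, stayed below 1 CPM in every library. All 5 leukocyte markers stayed below 1 CPM in every library, and their summed level ran from 0.437 to 0.671 CPM in the GFP libraries and from 0.248 to 0.407 CPM in the BMI1 libraries.

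Promoter sequence is shown for 3 receptors because one was higher in the BMI1 cells (BAI2), one was lower (GPR98) and one stood near the detection limit in both groups (BAI3). Each sequence is the 250 bases before the annotated start in RefSeq's GRCh38.p14, read 5′ to 3′ on the gene's strand. The windows are chr1:31764341-31764590 on the minus strand for BAI2, chr6:68635032-68635281 on the plus strand for BAI3 and chr5:90558547-90558796 on the plus strand for GPR98. Capitals mark each GC box, the motif GGGCGG or its reverse complement CCGCCC.
BAI2: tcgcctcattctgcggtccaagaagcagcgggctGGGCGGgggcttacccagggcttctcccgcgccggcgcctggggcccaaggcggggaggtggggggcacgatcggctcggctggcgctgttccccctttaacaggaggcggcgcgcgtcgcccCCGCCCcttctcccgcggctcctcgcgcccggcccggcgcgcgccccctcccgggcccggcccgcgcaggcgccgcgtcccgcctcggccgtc
BAI3: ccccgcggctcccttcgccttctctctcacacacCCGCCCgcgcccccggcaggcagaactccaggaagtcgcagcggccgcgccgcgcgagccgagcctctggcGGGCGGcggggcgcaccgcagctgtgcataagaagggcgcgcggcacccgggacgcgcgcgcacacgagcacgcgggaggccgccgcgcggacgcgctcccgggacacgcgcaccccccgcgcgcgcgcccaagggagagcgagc
GPR98: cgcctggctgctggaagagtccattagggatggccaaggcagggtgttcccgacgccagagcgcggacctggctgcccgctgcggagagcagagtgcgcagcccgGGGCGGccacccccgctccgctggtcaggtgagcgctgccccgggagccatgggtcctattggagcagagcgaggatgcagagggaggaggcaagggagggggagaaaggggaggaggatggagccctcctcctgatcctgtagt
RefSeq's table gave a window for 7 of the 10 receptors, with no entry used here for BAI1, LPHN1 and CD97. A GC box was found in 5 of these 7 and in 42.3% of all 27305 promoter windows. No window of the 7 held the TATA box TATAAA on either strand, against 11.1% of all windows. The E-box CACGTG and the AP-1 motif TGANTCA were likewise absent from the 7, against 6.49% and 6.6% of all windows. The BAI2 and BAI3 windows were alike in GC content (79.6% and 79.2%, against a median of 58.0% over all windows) and in CpG content, with 38 and 46 CpG sites, although BAI2 was expressed in A375 cells and BAI3 was barely detected. GPR98 had 68.4% GC and 15 CpG sites. A match to these letters describes the window and does not show a bound factor, and the start used in A375 cells may be another one.

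The brain angiogenesis inhibitor receptors differed widely among themselves. BAI1 was nearly absent from the GFP cells, with 2, 0 and 6 counts in GFP replicates 1, 2 and 3, against 233, 174 and 278 counts in BMI1 replicates 1, 2 and 3. On the CPM scale the GFP libraries read 0.0958, 0 and 0.199 CPM and the BMI1 libraries 10.4, 8.63 and 11.3 CPM. Every BMI1 library stood far above every GFP library, and the 0 in GFP replicate 2 allows a level of up to 0.119 CPM (3 counts). The mean went from 0.098 ± 0.099 to 10.1 ± 1.37 CPM (SD, n = 3 in each group), and the log2 fold change, BMI1 over GFP, was 6.53 (SE 0.32). That value chose the gene, so it is given as a description, with no p.

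The size of the BAI1 fold rests on the few GFP counts. Summed over the libraries and set against their depth, 685 counts against 8 gave a ratio of 97.2, with an exact conditional 95% interval from 49.0 to 226 that covers counting error only. Its log2 fold change was 7.69 without GFP replicate 3, which holds 6 of the 8 counts, and 5.76 with a prior count of 2 in the fit. With DESeq2 it was 6.59 (SE 0.54) and with limma-voom 6.99 (SE 0.57), so the SE of 0.32 is likely too small. The deposited estimates for BAI1 lay within 0.08 of whole numbers in every library, and none of the 50-base stretches of its longest coding transcript occurred in a transcript of another gene. In bulk RNA, more cells with the transcript and more transcript per cell cannot be told apart.

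BAI2, a paralogue also known mainly from brain, was already expressed in the GFP cells. It read 16.6, 17.4 and 17.6 CPM in the GFP libraries and 28.2, 27.7 and 32.9 CPM in the BMI1 libraries, with no overlap. Its log2 fold change was 0.78 (SE 0.07). BAI3, a receptor for C1q-like proteins at synapses, was the 1 receptor that did not pass the filter on low counts. It had 10, 8 and 8 counts in the GFP libraries and 1, 3 and 10 in the BMI1 libraries. Those libraries overlapped, and the level was 0.354 ± 0.111 CPM in the GFP group and 0.2 ± 0.187 CPM in the BMI1 group (SD, n = 3).

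**Figure D1:**
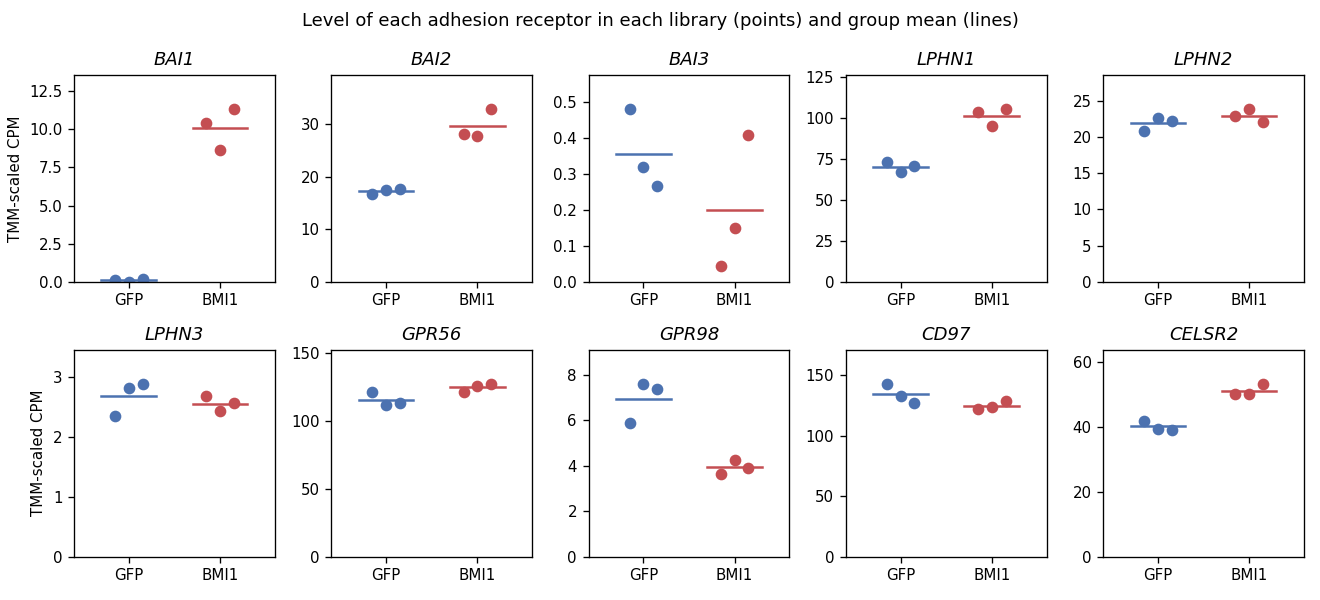
Each panel plots one receptor, with TMM-scaled CPM on a vertical axis that starts at 0 and has its own scale, a point for each of the 3 GFP and 3 BMI1 libraries and a line at the group mean. The BAI1 points sit between 0 and 0.199 CPM in GFP and between 8.63 and 11.3 CPM in BMI1 libraries, while the groups overlap for BAI3, LPHN2, LPHN3 and CD97.

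The latrophilins, receptors that bind teneurins and FLRT proteins on neighbouring cells and of which LPHN1 is the receptor of the spider toxin latrotoxin, moved unequally. LPHN1 read 73.2, 66.9 and 71.0 CPM in the GFP libraries and 104, 95.2 and 106 CPM in the BMI1 libraries. The groups were well apart, with a log2 fold change of 0.53 (SE 0.06). LPHN2 read 20.8, 22.7 and 22.2 CPM in GFP and 22.9, 23.9 and 22.1 CPM in BMI1 libraries, which overlapped. LPHN3 was low, at 2.68 ± 0.29 and 2.56 ± 0.12 CPM (SD, n = 3), with overlapping libraries and a log2 fold change of -0.08 (SE 0.16).

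GPR56 and CD97 were the most abundant of the 10 receptors and differed little between the groups. GPR56 read 121, 112 and 113 CPM in the GFP libraries and 122, 126 and 127 CPM in the BMI1 libraries. The lowest BMI1 library was only just above GFP replicate 1, and the log2 fold change was 0.11 (SE 0.05). CD97, a receptor for the complement regulator CD55 that is common on leukocytes, read 143, 132 and 127 CPM in GFP and 122, 124 and 129 CPM in BMI1 libraries. These overlapped, and the log2 fold change was -0.10 (SE 0.05). CD97 shares 13.3% of its 50-base stretches with the transcripts of its neighbour in sequence EMR2, so the split of reads between these genes is uncertain.

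The very large receptor GPR98, a part of the ankle-link complex of inner ear hair cells and an Usher syndrome gene, was the receptor that was lower in BMI1 cells. It read 5.89, 7.59 and 7.36 CPM in the GFP libraries and 3.61, 4.27 and 3.91 CPM in the BMI1 libraries. No BMI1 library reached the lowest GFP library, GFP replicate 1, and the log2 fold change was -0.83 (SE 0.13). CELSR2, an adhesion receptor with cadherin repeats that works in planar cell polarity, read 41.8, 39.4 and 38.9 CPM in GFP and 50.1, 49.9 and 53.1 CPM in BMI1 libraries. Its libraries did not overlap, and the log2 fold change was 0.35 (SE 0.06).

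Of the 9 receptors that passed the count filter, 4 were past edgeR's adjusted threshold of 0.05 as higher (BAI1, BAI2, LPHN1 and CELSR2) and 1 as lower (GPR98). Over all 15079 tested genes, 26.4% were past it, 17.1% as higher and 9.32% as lower. The libraries of the groups did not overlap for 6 of the 10 receptors and for 40.1% of all tested genes. Nothing is read from these shares, since the receptors were chosen with this contrast known. Without GFP replicate 1, the share past the threshold over all tested genes was 36.9%, and GPR56, with a log2 fold change of 0.15, was also past it.

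Base composition differed among the receptors. The 4 receptors past the threshold as higher had the most GC-rich transcripts of the 10, from 60.3% (CELSR2) through 61.4% (LPHN1) and 63.7% (BAI2) to 68.5% (BAI1). GPR56 and CD97, which differed little between the groups, came close behind with 58.1% and 58.3%. GPR98 had 42.5%, LPHN2 40.9%, LPHN3 37.7% and BAI3 43.2%. Over all tested genes the median was 48.8%, with 55.5% for the genes called higher and 43.3% for those called lower. When each library was corrected for GC content, the log2 fold changes of BAI1, BAI2, LPHN1 and CELSR2 were 6.35, 0.65, 0.43 and 0.26, and that of GPR98 was -0.77. The corrected log2 fold changes of GPR56, LPHN2 and CD97 were 0.04, 0.14 and -0.17. With this correction LPHN2 was also past the threshold as higher and CD97 as lower, when 37.8% of all tested genes were called.

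Levels per length set the receptors in order. With CPM divided by the length in kilobases of the longest coding transcript, CD97 came first in GFP cells at 42.0 ± 2.47 CPM per kilobase, followed by GPR56 at 27.2 ± 1.16 and LPHN1 at 8.96 ± 0.41 (SD, n = 3). CELSR2, LPHN2 and BAI2 followed at 3.8, 3.48 and 3.18 CPM per kilobase, then GPR98 at 0.355 and LPHN3 at 0.212. BAI3 at 0.0589 and BAI1 at 0.0157 CPM per kilobase were last, and no neighbours in this order overlapped in their libraries.

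In the BMI1 cells BAI1 moved from place 10 to place 7, at 1.62 ± 0.22 CPM per kilobase. It stood below LPHN2 at 3.64 ± 0.14 and above LPHN3 at 0.202 ± 0.00975 (SD, n = 3), far below CD97 at 39.2 and GPR56 at 29.4 CPM per kilobase. BAI2 passed CELSR2, at 5.47 against 4.84 CPM per kilobase. LPHN3 and GPR98, at 0.202 and 0.201, were the neighbours whose libraries overlapped. Together the 10 receptors summed to 409 ± 13.8 CPM with GFP and to 472 ± 14.0 CPM with BMI1 (SD, n = 3), and CD97, GPR56 and LPHN1 made up between 74.1% and 79.3% of that sum in each library.

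**Figure D2:**
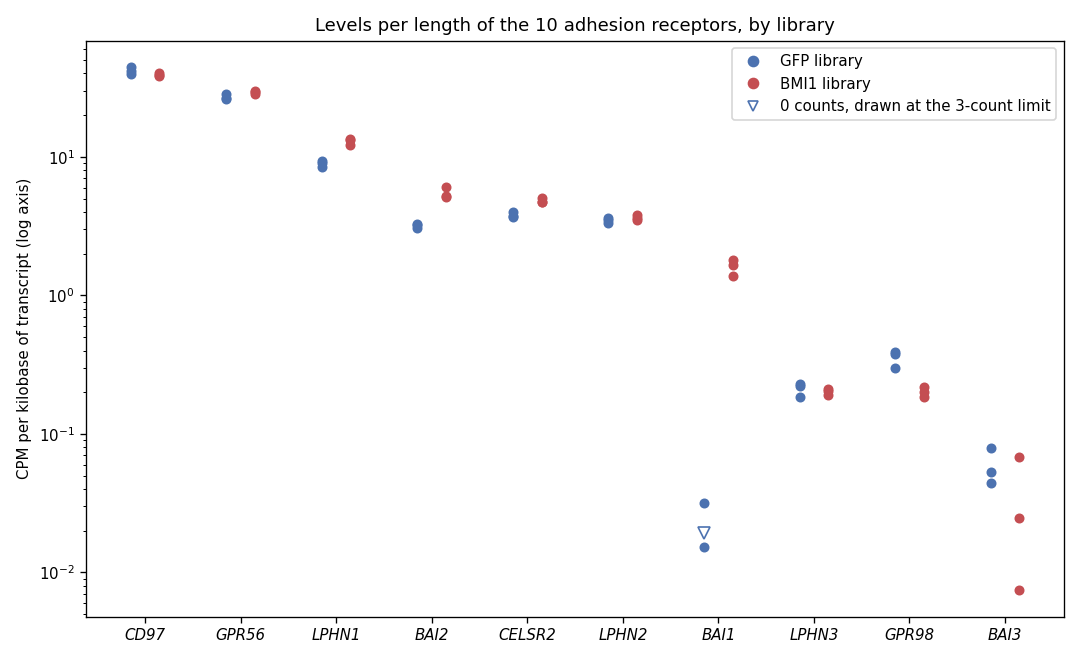
The plot gives CPM per kilobase of the longest coding transcript on a log axis for each of the 10 receptors, with a point per library, GFP to the left and BMI1 to the right of each name. The open triangle marks the GFP library with 0 counts of BAI1 at its limit of 3 counts, and BAI1 is the receptor whose place changed most, from 0.0157 to 1.62 CPM per kilobase in the means.

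The other adhesion GPCRs of the family, which are not among the 10, were tested. This list too was chosen with earlier results of these data known, so its calls are not independent of them. Of 23 listed, 11 passed the count filter, and of these 3 rose, 1 fell and 7 did not pass the test, with a median log2 fold change of 0.02 against -0.01 over all tested genes. The share of calls was 36.4%, beside 26.4% over all tested genes. The list had 5 called genes without GFP replicate 1 and 5 with GC correction, when 36.9% and 37.8% of all tested genes were called. EMR2, a myeloid receptor for chondroitin sulfate, read 6.8, 6.28 and 6.7 CPM in GFP and 11.4, 11.1 and 10.9 CPM in BMI1 libraries. The groups were well apart, a shift of 0.75 log2 units (SE 0.09, edgeR adjusted p = 3.30e-05), with the uncertainty over reads shared with CD97 given above.

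GPR124, a coactivator of Wnt signalling in brain endothelium, rose by 0.43 on the log2 scale (SE 0.08, edgeR adjusted p = 0.00108). CELSR1, the planar polarity paralogue of CELSR2, rose by 0.34 (SE 0.06, edgeR adjusted p = 0.00081), close to the 0.35 of CELSR2. CELSR3 did not pass, with 0.16 (edgeR adjusted p = 0.0704), but did without GFP replicate 1 (edgeR adjusted p = 0.0267). Its log2 fold change was 0.06 with GC correction (edgeR adjusted p = 0.331) and 0.10 without BMI1 replicate 3 (0.287). GPR110 fell by 0.65 (edgeR adjusted p = 0.017), a call lost without GFP replicate 3 (0.0515) and without BMI1 replicate 1 (0.0794).

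GPR125 and GPR126, the latter needed for myelination by Schwann cells, were the most abundant of these other receptors and did not pass. Per length they stood at 18.1 and 10.8 CPM per kilobase in GFP cells, between GPR56 and LPHN1. Their log2 fold changes were 0.02 and 0.03 (SE 0.06 for each). The 12 other receptors under the count filter had at most 35 counts over all 6 libraries. ELTD1, known from endothelium, read 5.4 ± 0.41 and 4.65 ± 0.86 CPM (SD, n = 3) and did not pass. The 5 endothelial markers examined were mixed: CDH5 and TEK stayed below 1 CPM in every library, PECAM1 did not pass (edgeR adjusted p = 0.972), KDR fell by 0.83 on the log2 scale (edgeR adjusted p = 0.000324) and VWF rose by 0.85 (0.00755). Their summed level ran from 8.72 to 9.55 CPM in the GFP libraries and from 6.99 to 7.82 CPM in the BMI1 libraries, and their part in the ELTD1 values was not tested.

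**Figure D3:**
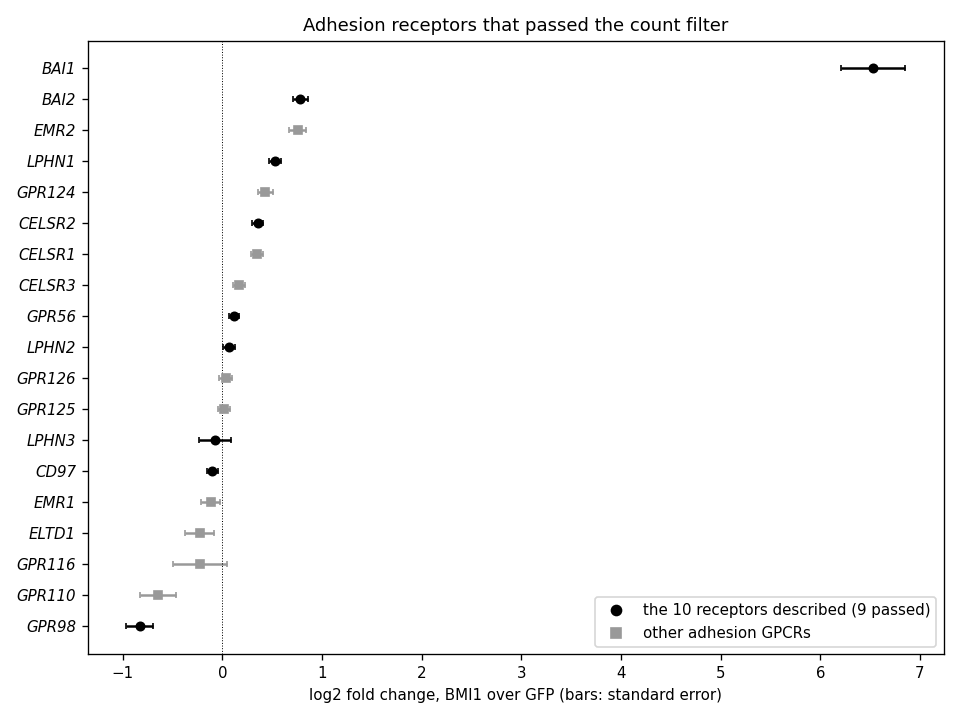
The horizontal axis gives the log2 fold change, BMI1 over GFP, with standard error bars, for 19 of the 20 adhesion GPCRs that passed the count filter, circles for the described receptors and squares for the others. BAI1 lies at 6.53, and the other 18 lie between -0.83 and 0.78. The bar of BAI1 is likely too short, since its GFP counts are few.

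Proteins that bind these receptors from outside the cell had the highest share of calls among the 7 lists of related genes examined, 76.9%. The lists were chosen with earlier results of these data known, so nothing is read from this order. Of 20 listed partners 13 passed the count filter, and 10 of them rose, 0 fell and 3 did not pass edgeR's test. Their median log2 fold change was 0.92, against -0.01 over all tested genes, of which 17.1% rose. The count of called partners was 11 without GFP replicate 1 and 11 with GC correction, when 36.9% and 37.8% of all tested genes were called. The median GC content of the 12 partners with a value was 57.3%.

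CD55, which shields cells from complement and binds CD97, read 55.9, 58.2 and 58.6 CPM in GFP and 107, 114 and 105 CPM in BMI1 libraries. It was the partner with the smallest adjusted p, with a shift of 0.92 log2 units (SE 0.06, edgeR adjusted p = 1.45e-07), while CD97 itself had -0.10. The 3 FLRT genes, whose products bind latrophilins, all rose: FLRT1 by 1.21, FLRT2 by 0.86 and FLRT3 by 0.50 on the log2 scale. FLRT3 was the most abundant of these per length, at 14.8 CPM per kilobase in BMI1 cells, near the 12.9 of LPHN1. The teneurins ODZ1, ODZ2 and ODZ3 did not pass, with edgeR adjusted p of 0.372, 0.0507 and 0.705, and ODZ2 was low, at 0.633 ± 0.173 and 0.318 ± 0.0764 CPM (SD, n = 3).

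C1QL1, a C1q-like ligand of BAI3, read 6.37, 4.73 and 5.17 CPM in GFP and 16.6, 16.8 and 20.5 CPM in BMI1 libraries. The BMI1 libraries were all higher, a shift of 1.74 log2 units (SE 0.12, edgeR adjusted p = 4.02e-07), and C1QL4 rose by 1.38, although BAI3 had no more than 10 counts in any library. The Nogo receptors, surface proteins that bind BAI family members, rose as well. RTN4R had a log2 fold change of 0.92, RTN4RL2 1.64 and RTN4RL1 2.73, the last from summed counts of 57 in GFP to 339 in BMI1 cells (edgeR adjusted p = 1.79e-06).

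Of the GPR56 ligands, transglutaminase 2, TGM2, read 109, 102 and 98.6 CPM in GFP and 150, 143 and 153 CPM in BMI1 libraries, a shift of 0.53 log2 units (SE 0.05, edgeR adjusted p = 1.12e-05). The collagen III gene COL3A1 was barely detected, with 8 counts summed over GFP and 6 over BMI1 libraries, and was not tested. COL3A1 is also a defining fibroblast marker, and the summed fibroblast markers, 4 of 5 tested of which rose, ran from 15.6 to 18.5 CPM in GFP and from 33.5 to 34.3 CPM in BMI1 libraries. Their part in the change of the partners was not tested.

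Inside the cell, the machinery that BAI1 uses to take up dying cells was present, and its genes named next did not pass the test. ELMO1 and DOCK1, which link BAI1 to the GTPase RAC1, read 72.8 ± 2.44 and 117 ± 1.38 CPM with GFP and 78.6 ± 2.51 and 122 ± 3.01 CPM with BMI1 (SD, n = 3). Neither passed, with log2 fold changes of 0.11 (edgeR adjusted p = 0.174) and 0.06 (0.401). RAC1 had -0.05 (edgeR adjusted p = 0.34), and GNA12 and GNA13, the G proteins through which GPR56 acts on RHOA, had 0.17 (0.0582) and -0.12 (0.217).

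Of all 27 listed effectors and membrane partners, 8 rose, 0 fell and 19 did not pass, with a median log2 fold change of 0.07, a share of calls of 29.6% beside the 26.4% of all tested genes. The count of called genes was 11 without GFP replicate 1 and 11 with GC correction. In those settings 36.9% and 37.8% of all tested genes were called. The 8 included the beta-arrestin ARRB1, with 0.65 (SE 0.06, edgeR adjusted p = 2.85e-06), and the scaffold MAGI1, with 0.50 (edgeR adjusted p = 7.79e-05). The tetraspanins CD9 and CD81, membrane partners of GPR56, rose by 0.55 and 0.34. BAIAP3, named for its binding to BAI1, rose by 1.15 from a low level, 0.577 ± 0.105 to 1.27 ± 0.261 CPM (SD, n = 3, edgeR adjusted p = 0.00598).

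Other receptors and bridging proteins for dying cells were examined beside BAI1. Of 21 listed, 17 passed the count filter, and 7 rose, 1 fell and 9 did not pass, with a median log2 fold change of 0.20 against -0.01 over all tested genes. The share of calls was 47.1%, beside 26.4% over all tested genes. The count of called genes was 9 without GFP replicate 1 and 12 with GC correction, when 36.9% and 37.8% of all tested genes were called. MERTK, a receptor kinase of this pathway, had summed counts of 12 in GFP and 99 in BMI1 cells, a shift of 3.19 log2 units (SE 0.38). With 1, 4 and 7 counts in the GFP libraries, it passed the count filter only through its BMI1 libraries. Its rise, counted among the 7, is therefore given as a description with no p. Its ligand GAS6 read 10.0, 10.3 and 9.12 CPM in GFP and 22.4, 22.5 and 22.4 CPM in BMI1 libraries, and the engulfment receptor MEGF10 rose by 1.15. Integrin beta 3, ITGB3, was the gene that fell, by 0.17 (edgeR adjusted p = 0.00325). TIMD4, another phosphatidylserine receptor, had 0 counts in every library.

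Genes of planar cell polarity, in which CELSR2 works, and Usher complex genes were measured as well. Not all of these are known partners of CELSR2 or GPR98. Among 14 planar cell polarity genes there were 5 rises, 0 falls and 9 that did not pass, for a median log2 fold change of 0.08. The share of calls was 35.7%, beside 26.4% over all tested genes. The count without GFP replicate 1 was also 5, when 36.9% of all tested genes were called. The protocadherin DCHS1 rose by 1.14, ANKRD6 by 1.07, VANGL2 by 0.85 and PTK7 by 0.35, while the CELSR partner FZD6 had -0.03 (edgeR adjusted p = 0.769). With GC correction the count of called genes was 8, and 37.8% of all tested genes were then called. Of 9 Usher complex genes 4 passed the count filter and 2 rose, CDH23 by 2.20 and MYO7A by 1.31, where 17.1% of all tested genes rose. PDZD7 and DFNB31, which bind GPR98 at the ankle link, had 0.16 and -0.04 and did not pass (edgeR adjusted p = 0.205 and 0.808), and the count of called genes was 4 without GFP replicate 1, when 36.9% of all tested genes were called.

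**Figure D4:**
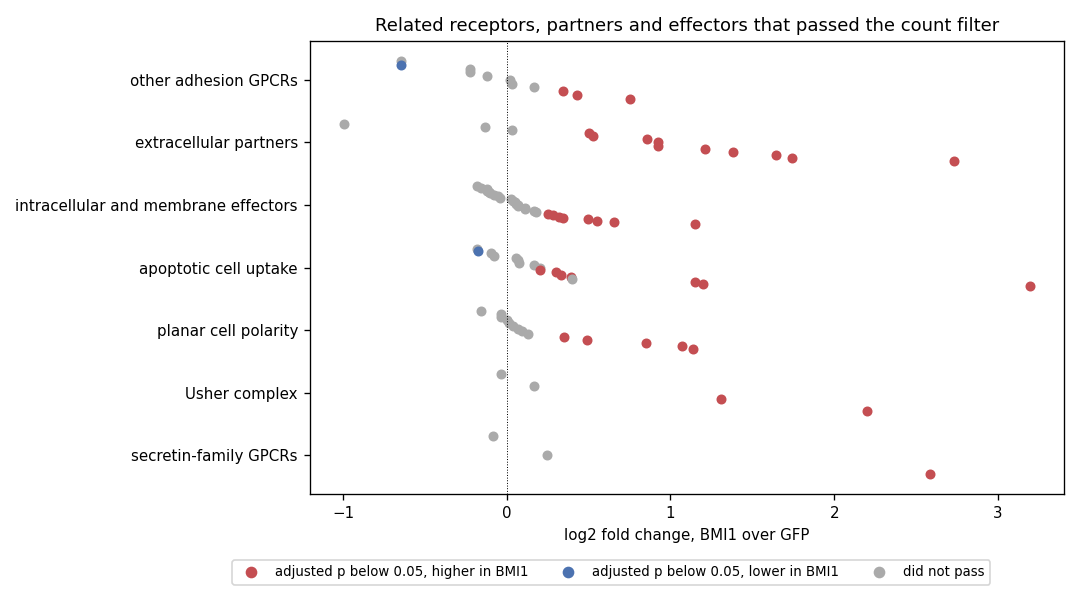
Each point is 1 gene that passed the count filter, placed by its log2 fold change, BMI1 over GFP, in rows by list, with colour for the call. In the row of extracellular partners 10 of 13 points are called higher, and in the row of effectors 8 of 27.

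Of the genes nearest to BAI1 on its chromosome, 3 on each side with a row in the table, 4 were tested and 1 rose, where 17.1% of all tested genes rose. TSNARE1, JRK and PSCA did not pass, with edgeR adjusted p of 0.812, 0.969 and 0.688, and LINC00051 and MIR4472-1 had 5 and 0 counts in all. ARC, an immediate early gene of neurons, rose by 0.70 (SE 0.14, edgeR adjusted p = 0.00316), from 3.65 ± 0.526 to 5.9 ± 0.671 CPM (SD, n = 3).

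By the pattern over the 6 libraries, the 5 genes most like BAI1 included RASSF5, PNMT and NPTX2, with Pearson r of log2 CPM between 0.998 and 0.999. The libraries fall into 2 groups, so r mostly reflects a difference between groups: 1180 of 13946 genes had r above 0.95. The sizes of the differences were unlike, with log2 fold changes of 0.69 for RASSF5 and 3.61 for NPTX2.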

How the data were processed

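For each of 6 libraries the authors deposited expected counts by gene symbol, estimated by RSEM and not normalized, and 0 columns were unused. Per the submitters' processing notes, RSEM 1.2.12, Bowtie 1.0.1 and hg19 were used. The sources used here give no library kit, strand or annotation.

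Counts were rounded. edgeR's filterByExpr kept 15079 genes, and the quasi-likelihood test of edgeR, two-sided, was run on them after TMM scaling, with Benjamini-Hochberg adjustment over all tested genes (edgeR 4.0.16, R 4.3.3). Standard errors were had by dividing the log2 fold change by the root of F, which can give too small a value where a group has few counts. CPM values are TMM-scaled. Lengths and GC content come from GENCODE 29 transcripts (GRCh38), matched by symbol for 94.8% of tested genes; the authors' gene models may differ. Alternatives used DESeq2 1.42.0, limma 3.58.1, other scalings and filters, a lowess GC correction, each library left out and a replicate block.

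The receptors and lists were chosen with earlier results of these data known, so edgeR's calls for the receptors are given as a description with no p, and those for the lists are not independent of these results. Text names genes past the threshold with the smallest adjusted p in each list, listed BAI1 partners, its nearest neighbours and the 5 genes most like it. A few genes under this rule are not reported here. Other genes were named after their values were seen. On simulated counts for BMI1 against GFP (14934 genes), recovery was 88.1% at a 1.5-fold change and 98.5% at a 2-fold change. False calls were 8.61%, more than the threshold of 0.05 aims at. Changes were put into 67 genes at each of these folds and 66 at 4-fold, far fewer than the 3986 genes called in the data. All had a mean of at least 1 CPM, so the recovery does not cover genes below that level.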

Additional observations from a re-analysis of the deposited data

How the results depend on the processing

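The number of fallen genes, 1405, lay between 711 (without BMI1 replicate 3) and 2451 (without GFP replicate 1) when each library was dropped in turn, and was 2526 with GC correction. Called planar polarity genes went from 5 to 8 with GC correction. Called Usher complex genes numbered 2 to 4 when a library was dropped, and called secretin-family receptors from 1 to 2, with 2 also when no filter on low counts was used. The other counts of called genes, 129 of 140 recomputed, stayed within 1.5 times the reported count. None of the 679 recomputed log2 fold changes of single genes reversed a call. The causes were not tested.

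The replicate numbers were not used as pairs. Same-numbered libraries deviated from their group means with correlations of 0.0681, 0.0944 and -0.0648, and GFP replicate 1 correlated best with BMI1 replicate 3 (0.117). With the replicate block 3988 genes were called in place of 3986, and the same receptors were past the threshold. For BAI1, depth limits the GFP level, and with it the fold.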

Other observations

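The secretin-family receptors, the closest relatives of the adhesion GPCRs by their membrane-spanning part, were mostly silent in A375 cells. Of 15 listed, 3 passed the count filter and 4 had 0 counts in all libraries. PTH1R, the receptor for parathyroid hormone, rose from summed counts of 20 in GFP to 108 in BMI1 cells, a shift of 2.59 log2 units (SE 0.33). With 7, 8 and 5 counts in the GFP libraries, it passed the count filter only through its BMI1 libraries, so no p is given. VIPR1, a receptor for vasoactive intestinal peptide, read 4.37 ± 0.44 and 5.17 ± 0.59 CPM (SD, n = 3) and did not pass (edgeR adjusted p = 0.207), and neither did GIPR (0.81). The share of calls among the 3 was 33.3%, from PTH1R alone, beside 26.4% over all tested genes. The count of called receptors, rises and falls together, was 2 without GFP replicate 1 or BMI1 replicate 3, when 36.9% and 18.2% of all tested genes were called. Among receptors under the filter, CALCRL had 7, 17 and 22 counts in GFP and 2, 4 and 8 in BMI1 libraries. ADCYAP1R1 went the other way, with 2, 5 and 5 counts in GFP and 6, 15 and 8 in BMI1 libraries.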
